A study of Homo sapiens with 17 samples.

Results

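The AP-1 family comprised 8 transcription factor genes of the 19867 genes in the table: FOS (ENSG00000170345), FOSB (ENSG00000125740), FOSL1 (ENSG00000175592) and FOSL2 (ENSG00000075426) of the Fos subfamily, JUN (ENSG00000177606), JUNB (ENSG00000171223) and JUND (ENSG00000130522) of the Jun subfamily, and ATF3 (ENSG00000162772). They were taken by Ensembl ID as the members of the family, with earlier results of these data known, and all 8 were present. The cells were SNU-761, an established human liver carcinoma line labelled wild type, and newly made RNA was counted by SLAM-seq, which reads incorporated thiouridine as T-to-C conversions. Labelled cells were collected after 4 h with VT107 at 0.1 µM or 2.15 µM, set against DMSO (2 libraries per group), or with an intetumumab biosimilar at 1.5 µg/ml or 5 µg/ml, set against an isotype IgG1 at 5 µg/ml (3 libraries per group). VT107 is a pan-TEAD inhibitor, and TEADs are the proteins through which the coactivators YAP and TAZ reach DNA. Intetumumab is an antibody against integrins that carry the ITGAV chain. A library of cells that received no thiouridine was made in each of the 2 experiments. All libraries came from this 1 line, and the 2 experiments share no library.

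Jun proteins bind DNA as dimers with each other or with Fos proteins, and Fos proteins need a Jun partner. The dimers bind the sequence TGANTCA, which is common in enhancers, and TEAD factors often sit on the same enhancers. Several AP-1 genes are immediate early genes, whose transcription starts within minutes of growth factor, adhesion or stress signals and whose RNA is short-lived. ATF3, a stress-induced factor, binds as a homodimer or with Jun proteins.

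With VT107 at 2.15 µM, JUNB was the 1 member called lower in the main edgeR fit, which called 0.109% of all genes. JUN and FOSB stood lower there without passing that test over all genes, and FOSL2 and JUND overlapped their DMSO libraries. No member was called at 0.1 µM in that fit, whereas DESeq2 called JUNB and JUN at both VT107 doses. DESeq2 called 2.43% of all genes at 2.15 µM and 1.81% at 0.1 µM. With intetumumab, JUNB, JUN, FOSL1 and FOSL2 all stood below the isotype libraries at both doses. Of all genes, 8.39% did so at 5 µg/ml and 6.85% at 1.5 µg/ml. None of these 4 members was called with edgeR, whereas DESeq2 called JUNB, JUN and FOSL1 at 5 µg/ml and JUNB at 1.5 µg/ml. Its share of all genes called was 1.11% at 5 µg/ml and 0.388% at 1.5 µg/ml. JUNB and FOSL2 were called between the 2 control groups, JUNB 2.50-fold higher and FOSL2 1.55-fold lower in DMSO than with the isotype, in a comparison that called 13.5% of all genes.

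The 250 bases before the RefSeq start site are shown for the 3 Jun genes, of which JUNB was called lower with VT107 and JUND overlapped DMSO, and for FOSL2, the best counted Fos gene, whose libraries at 2.15 µM and in DMSO overlapped. They are written 5′ to 3′ on the gene's strand in build GRCh38.p14, for JUNB from chr19:12791236-12791485 (plus strand), for JUN from chr1:58784048-58784297 (minus), for JUND from chr19:18281623-18281872 (minus) and for FOSL2 from chr2:28392608-28392857 (plus). Capitals mark TGACG on either strand (read as CGTCA on the other), the core letters of a cAMP response element, and TGACNTCA, its 8-base form.
JUNB: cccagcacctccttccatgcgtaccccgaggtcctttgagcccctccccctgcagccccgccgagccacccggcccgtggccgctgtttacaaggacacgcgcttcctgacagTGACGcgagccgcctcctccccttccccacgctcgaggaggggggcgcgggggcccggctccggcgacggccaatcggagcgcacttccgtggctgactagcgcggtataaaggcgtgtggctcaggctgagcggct
JUN: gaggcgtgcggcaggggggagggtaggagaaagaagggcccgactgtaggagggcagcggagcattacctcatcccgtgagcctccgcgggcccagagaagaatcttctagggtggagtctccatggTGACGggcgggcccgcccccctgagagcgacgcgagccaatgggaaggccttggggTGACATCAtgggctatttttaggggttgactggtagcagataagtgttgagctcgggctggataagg
JUND: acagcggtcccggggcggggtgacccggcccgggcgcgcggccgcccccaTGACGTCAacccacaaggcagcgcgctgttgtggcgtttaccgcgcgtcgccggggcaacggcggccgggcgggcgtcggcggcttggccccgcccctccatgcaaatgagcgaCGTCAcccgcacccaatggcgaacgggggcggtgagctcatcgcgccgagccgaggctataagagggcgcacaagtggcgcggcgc
FOSL2: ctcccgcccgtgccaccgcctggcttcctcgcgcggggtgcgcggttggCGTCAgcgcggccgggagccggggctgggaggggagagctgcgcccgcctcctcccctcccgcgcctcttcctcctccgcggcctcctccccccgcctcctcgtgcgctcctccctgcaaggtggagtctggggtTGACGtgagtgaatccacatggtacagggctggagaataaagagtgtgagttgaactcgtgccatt

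The promoter table held 8 such windows for 7 of the members, with 2 for ATF3. TGACG was present in 6 of the 8 windows, against 21.2% of all 35116 windows of that length. TGACNTCA was present in 3 of 8 (JUN, JUND and 1 of ATF3), against 6.87% of all windows. In JUND this match contains 2 of the 3 TGACG matches, 1 on each strand. CCAAT was found in 4 of 8, against 32.0% of all windows. The AP-1 letters TGANTCA and the TEAD letters GGAATG were in 0 of the 8 windows, against 6.57% and 11.9% of all windows, and the CArG box was also in 0, against 1.16%. All motifs were searched on both strands. Only these 250 bases were searched, so sites further upstream or in enhancers are not covered. Of the 6 motifs, JUN and JUND held TGACG, TGACNTCA and CCAAT, JUNB held TGACG and CCAAT, and FOSL2 held TGACG.

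In RefSeq (GRCh38.p14), JUNB lies at chr19:12791486-12793315 and JUN at chr1:58780791-58784047. The interval of HOOK2 overlaps the first 865 bases of JUNB, and that of FOSL2-AS1 the first 1815 bases of FOSL2 (chr2:28392858-28417317). The libraries were made from 3′ ends, and both overlaps lie at the 5′ end of the member. Whether reads were counted by strand is not given in the sources used here.

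Labelled libraries held 435343 to 1778876 counts. The members took between 0.137% and 0.341% of these. In the cells without thiouridine, members had 10 of 10702 counts (VT107 experiment) and 5 of 4553 (intetumumab experiment). No member reached more than 1.10% of its labelled mean there. The 2 libraries at 2.15 µM were the deepest, with 1778876 and 1247990 counts, against 1001568 and 1103024 in DMSO. Levels below are counts per 1000000 after TMM scaling over the 15 labelled libraries (CPM), and log2 fold changes come from edgeR fits of each experiment, with p-values adjusted over all genes tested. A member was called at an adjusted p under 0.05. The labels do not state that replicates were separate cultures, and the p-values then reflect a spread between libraries that may be technical. Markers of the labelled cell type could not be looked up and were not analysed here, since the table gives IDs with no names.

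**Figure D1:**
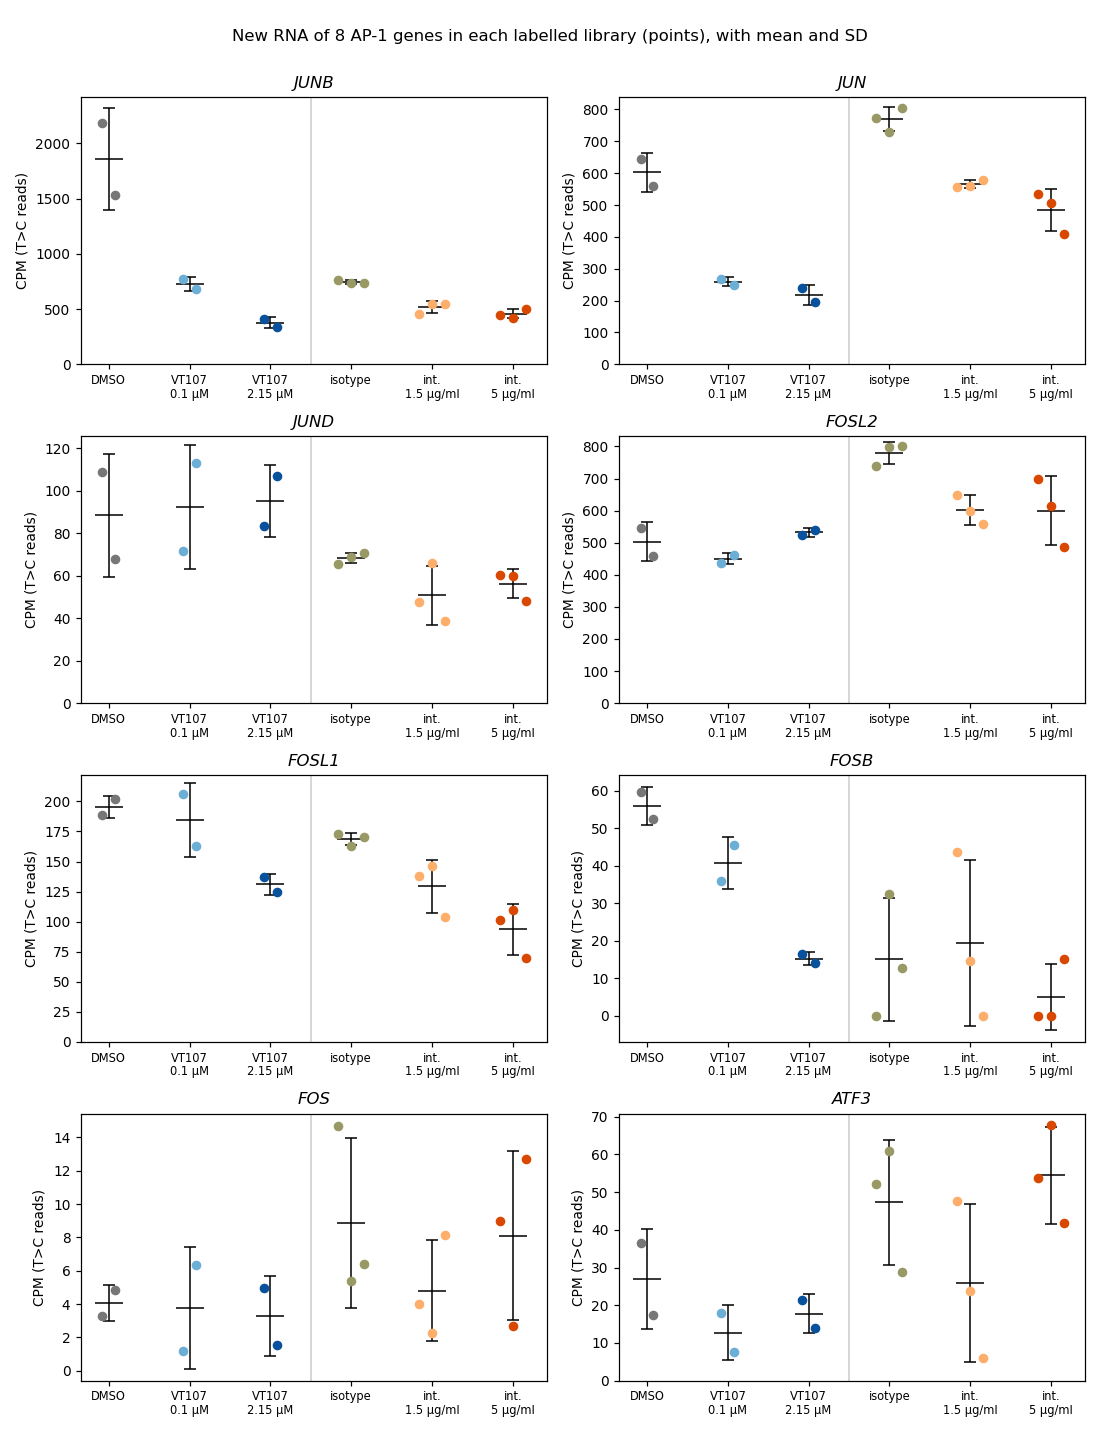
New RNA of each AP-1 gene in CPM (linear vertical axes that differ between panels) in every labelled library, with the VT107 experiment left of the grey line and the intetumumab experiment right of it. Points are libraries and bars are the mean ± SD (n = 2 on the left and 3 on the right). JUNB and JUN show treated points below all of their controls in both experiments, while the FOS panel spans 1.20 to 14.7 CPM.

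The comparison of VT107 with DMSO asks what TEAD inhibition does to new transcription within 4 h. JUNB, a Jun protein that activates less strongly than c-Jun in many settings, had 412 and 341 CPM at 2.15 µM, against 2185 and 1535 CPM in DMSO. The groups did not overlap, and the DMSO libraries lay further apart than any other pair of JUNB replicates. JUNB fell 4.93-fold (adjusted p = 0.0193, log2 fold change -2.30, SE 0.22), the second smallest p of 10083 genes tested. The cells were measured in bulk, so fewer cells making JUNB RNA and less of it per cell cannot be told apart. The call was lost without either of the 2.15 µM libraries (adjusted p = 0.193 without replicate 1 and 0.153 without replicate 2) and in a fit of these 2 groups alone (0.0598). The log2 fold change stayed between -2.52 and -2.04 over 13 alternatives.

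JUN encodes c-Jun, the main partner of Fos proteins. It had 240 and 195 CPM at 2.15 µM, against 645 and 560 CPM in DMSO. Both treated libraries were below both controls. The log2 fold change was -1.47 (SE 0.21, 95% interval -1.96 to -0.98), and the adjusted p of 0.0569 missed the threshold. JUN was called in 4 of the 13 alternatives run: with DESeq2, without a filter on low counts, with a minimum count of 30, and in a fit of all 15 labelled libraries.

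JUND, which is constitutively expressed in many cells, had 83.2 and 107 CPM at 2.15 µM, against 109 and 67.9 CPM in DMSO, and the groups overlapped. The log2 fold change was 0.11, with a 95% interval of -0.74 to 0.95; the fall measured for JUNB lay outside this interval.

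Among the Fos genes, FOSB had 16.5 and 14.1 CPM at 2.15 µM, against 59.6 and 52.4 CPM in DMSO (adjusted p = 0.129, log2 fold change -1.86, SE 0.39). The groups lay apart, on raw counts of 30 and 18 at 2.15 µM and 54 in each DMSO library. All FOSB counts of this experiment were multiples of 6. The alternative that divided counts took each gene's common divisor over the 15 labelled libraries. That divisor was 1 for FOSB, so a division of its counts by 6 was not tested. FOSL1, which encodes Fra-1, had 137 and 125 CPM, against 189 and 202 CPM in DMSO (adjusted p = 0.425, log2 fold change -0.58, SE 0.25). FOSL2, which encodes Fra-2, had 523 and 541 CPM at 2.15 µM, against 547 and 460 CPM in DMSO. Its groups overlapped, with a log2 fold change of 0.08 and a 95% interval of -0.35 to 0.51. All FOSL2 counts were even in the 15 libraries.

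FOS, the founding Fos gene and an immediate early gene, was barely counted. It had 9 and 2 counts at 2.15 µM, 1 and 5 at 0.1 µM, and 3 and 5 in DMSO, and it did not pass the filter on low counts in either experiment. ATF3 had 21.5 and 14.1 CPM at 2.15 µM, against 36.4 and 17.5 CPM in DMSO. The groups overlapped (adjusted p = 0.792, log2 fold change -0.58, SE 0.62), and all ATF3 counts in the 15 libraries were multiples of 3, with 18 to 39 raw counts in these 4.

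Of the 7 members tested at 2.15 µM, 1 was called, against 0.109% of the 10083 genes (11 genes). Lower groups with no overlap were found for 4 members, against 20.4% of genes, and none of the 7 had a higher group with no overlap, against 24.2%. These 4 (JUNB, JUN, FOSB and FOSL1) were also those lower at an unadjusted p under 0.05, against 6.30% of genes. The median log2 fold change of the 7 was -0.58, beside 0.03 for all genes. Scaling by the total count moved the median of all genes up by 0.16, and under it JUNB stood at -2.14 and JUN at -1.31.

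At 0.1 µM, JUNB had 770 and 679 CPM, against 2185 and 1535 CPM in the same DMSO libraries. The log2 fold change was -1.35 (SE 0.21, adjusted p = 0.0988). JUN had 269 and 249 CPM, against 645 and 560 CPM in DMSO (adjusted p = 0.131, log2 fold change -1.21, SE 0.21). Both genes lay below DMSO with no overlap, and both were called in 3 of 13 alternatives: DESeq2, no filter on low counts, and all 15 libraries in 1 fit. These 2 comparisons share their DMSO libraries, so the values at the 2 doses are not independent.

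The other members tested at 0.1 µM lay closer to DMSO. FOSB had 35.9 and 45.7 CPM, against 59.6 and 52.4 CPM (log2 fold change -0.45, adjusted p = 0.698). FOSL1 had 206 and 163 CPM (log2 fold change -0.08), FOSL2 had 438 and 462 CPM (-0.16) and JUND had 71.7 and 113 CPM (0.07), each overlapping its DMSO values. ATF3 had 17.9 and 7.62 CPM, on 15 and 6 counts (adjusted p = 0.575, log2 fold change -1.05, SE 0.66). Its log2 fold change was -0.46 without DMSO replicate 1 and -1.80 without replicate 1 at 0.1 µM. The main edgeR fit called no member and no gene (0% of 10083, with 12.1% at an unadjusted p under 0.05). DESeq2 called 2 members, against 1.81% of genes. At an unadjusted p under 0.05, 2 members were lower, against 6.11% of genes, and 3 lay lower with no overlap, against 19.4%.

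**Figure D2:**
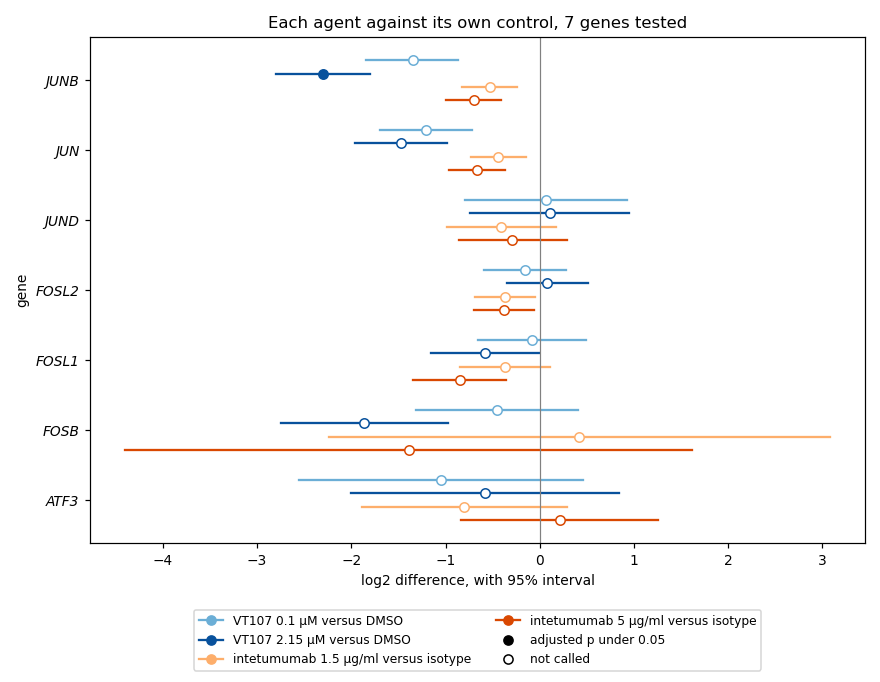
Log2 difference of each dose from its own control (horizontal axis, with 95% intervals) for the 7 AP-1 genes that passed the filter on low counts, DMSO being the control for VT107 and the isotype for intetumumab. Filled points have an adjusted p under 0.05. The 1 filled point is JUNB with VT107 2.15 µM at -2.30, and the intervals of FOSB with intetumumab reach from -4.40 to 3.08.

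The 2 doses of VT107 were also set directly against each other. JUNB had 412 and 341 CPM at 2.15 µM, against 770 and 679 CPM at 0.1 µM. The 2 groups lay apart (log2 fold change -0.95, SE 0.21), and the adjusted p over all genes was 0.886. DESeq2 alone called it (adjusted p = 0.0423). The JUN doses also lay apart by a smaller gap, at 240 and 195 CPM against 269 and 249 CPM (log2 fold change -0.26, 95% interval -0.75 to 0.23). FOSB had 16.5 and 14.1 CPM at 2.15 µM, against 35.9 and 45.7 CPM at 0.1 µM (adjusted p = 0.905, log2 fold change -1.41, SE 0.39). FOSL1 had a log2 fold change of -0.50 and lay lower at 2.15 µM, while FOSL2 (0.24) lay higher, each without overlap. JUND (0.04) and ATF3 (0.47) overlapped between the doses, and FOS was not tested. None of the 7 members and none of the genes was called in the main edgeR fit (0%, with 5.30% at an unadjusted p under 0.05). At an unadjusted p under 0.05, 2 members, JUNB and FOSB, were lower, against 2.76% of genes. Lower groups with no overlap were found for 4 members and a higher one for 1, against 18.7% and 20.4% of genes.

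The make-up of the AP-1 counts followed these differences. The 8 genes took 0.147% and 0.137% of all counts at 2.15 µM, and 0.341% and 0.271% in DMSO. JUNB held 28.7% and 25.5% of the 8 genes' counts at 2.15 µM, against 57.9% and 52.9% in DMSO. FOSL2 held 36.4% and 40.4% of them at 2.15 µM, against 14.5% and 15.9% in DMSO, although its own CPM overlapped. JUNB counts per JUN count were 1.72 and 1.75 at 2.15 µM and 2.86 and 2.73 at 0.1 µM, against 3.39 and 2.74 in DMSO. This ratio overlapped between 0.1 µM and DMSO and did not overlap between 2.15 µM and either of them. These are shares of reads and not of RNA molecules, because genes differ in how well a new 3′ end is detected.

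**Figure D3:**
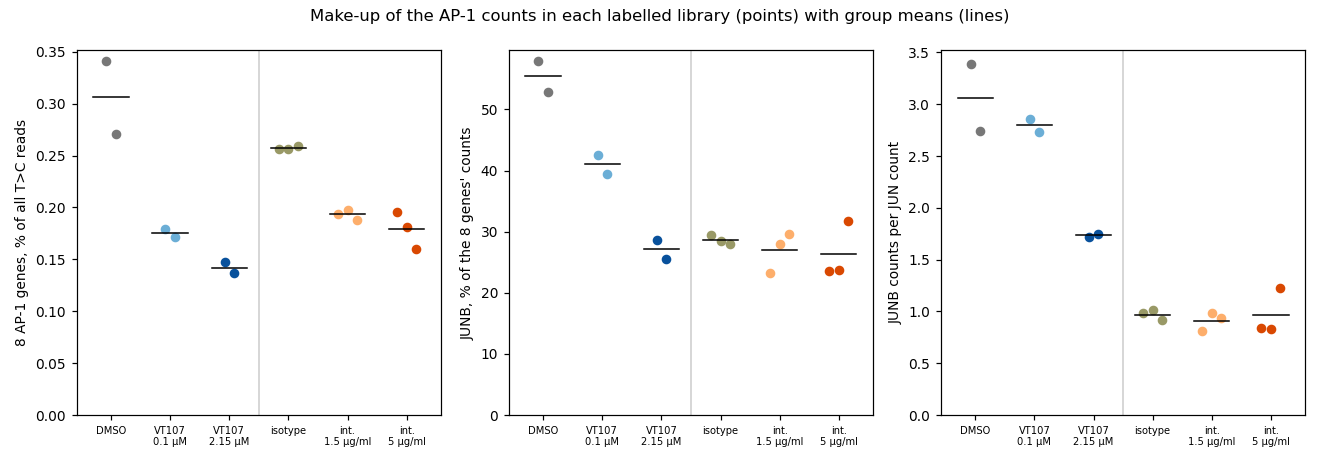
Share of the 8 AP-1 genes among all counts (left, %), share of JUNB among the 8 genes' counts (middle, %) and JUNB counts per JUN count (right, a ratio) in each labelled library, with lines at group means and the VT107 experiment left of the grey line. JUNB made up over 50% of the AP-1 counts in the DMSO libraries alone, and between 23.3% and 42.6% in all others.

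The comparison of intetumumab with the isotype asks what blocking ITGAV integrins does within the same time. At 5 µg/ml, JUNB had 450, 422 and 502 CPM, against 762, 739 and 735 CPM with the isotype. The groups did not overlap (adjusted p = 0.0891, log2 fold change -0.70, SE 0.13). JUN had 535, 507 and 410 CPM, against 774, 729 and 805 CPM with the isotype (adjusted p = 0.115, log2 fold change -0.67, SE 0.14). Both sets of values lay apart and neither passed the threshold, and DESeq2 alone called both among 15 alternatives (adjusted p = 9.28e-05 for JUNB and 2.80e-04 for JUN).

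FOSL1 had 101, 110 and 69.7 CPM at 5 µg/ml, against 173, 163 and 170 CPM with the isotype (adjusted p = 0.276, log2 fold change -0.85, SE 0.23). Its groups lay apart, and this was the lowest log2 fold change among the members with counts in all libraries. FOSL2 had 699, 614 and 487 CPM, against 739, 797 and 801 CPM (adjusted p = 0.456, log2 fold change -0.38, SE 0.15). JUND had 60.5, 59.8 and 48.2 CPM, against 65.6, 68.9 and 70.6 CPM with the isotype. Its groups lay apart by a small gap, and the 95% interval of its log2 fold change of -0.29 ran from -0.86 to 0.29.

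The remaining members gave no clear value with the antibody. FOSB had 0, 0 and 12 counts at 5 µg/ml, against 0, 24 and 12 with the isotype (adjusted p = 0.798). ATF3 had 53.8, 67.7 and 41.8 CPM, against 52.2, 60.8 and 28.9 CPM, and the groups overlapped (adjusted p = 0.929, log2 fold change 0.21, SE 0.48). FOS had 4, 2 and 10 counts, against 11, 4 and 6 with the isotype, and was not tested.

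Of the 7 members tested at 5 µg/ml, none was called with edgeR, against 0.0887% of the 9024 genes tested, and DESeq2 called 3 (JUNB, JUN and FOSL1), against 1.11% of the same genes. Lower groups with no overlap were found for 5 members, against 8.39% of genes, and 4 were lower at an unadjusted p under 0.05, against 4.90% of genes. The members' median log2 fold change was -0.67, beside 0.00 for all genes. This experiment held 2 shallow libraries, replicate 1 at 5 µg/ml with 435343 counts and replicate 3 at 1.5 µg/ml with 481424. When each of the 6 libraries of this comparison was left out in turn, JUNB stayed within -0.77 to -0.64 and JUN within -0.75 to -0.55 on the log2 scale.

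At 1.5 µg/ml, JUNB had 453, 549 and 546 CPM, against 762, 739 and 735 CPM with the same isotype libraries (adjusted p = 0.400, log2 fold change -0.53, SE 0.13). JUN had 558, 559 and 580 CPM, against 774, 729 and 805 CPM (adjusted p = 0.593, log2 fold change -0.44, SE 0.14). FOSL2 had 649, 599 and 558 CPM, against 739, 797 and 801 CPM (adjusted p = 0.899, log2 fold change -0.37, SE 0.15). These 3 genes lay below the isotype with no overlap, as did FOSL1 at 138, 146 and 104 CPM (log2 fold change -0.37, adjusted p = 0.941).

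JUND at 1.5 µg/ml had 47.7, 65.8 and 38.7 CPM and overlapped the isotype by 1 library. ATF3 had 47.7, 23.8 and 6.11 CPM, the last on 3 counts in the shallow library. FOSB had 33, 13 and 0 counts. No member and no gene was called in the main edgeR fit (0% of 9024, with 5.47% at an unadjusted p under 0.05). DESeq2 called 1 member, JUNB (adjusted p = 0.0137), against 0.388% of genes. At an unadjusted p under 0.05, 3 members were lower, against 3.07% of genes, and 4 lay lower without overlap, against 6.85%.

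Between 5 and 1.5 µg/ml, JUNB had 450, 422 and 502 CPM, against 453, 549 and 546 CPM, and the groups overlapped (log2 fold change -0.17, 95% interval -0.47 to 0.12). JUN was the 1 member that lay lower at 5 µg/ml without overlap, against 5.29% of genes (log2 fold change -0.23, 95% interval -0.53 to 0.07). The groups overlapped for FOSL1 (log2 fold change -0.48), FOSL2 (-0.01), JUND (0.12), FOSB (-1.81, on 0 to 33 counts) and ATF3 (1.01), and FOS was not tested. The median of the 7 members was -0.17, and none was called with edgeR, against 0.0111% of genes, or with DESeq2, and 0 members had an unadjusted p under 0.05, against 5.64% of genes. The share of the 8 genes among all counts was 0.196%, 0.181% and 0.160% at the higher dose and 0.194%, 0.198% and 0.188% at the lower, against 0.256%, 0.256% and 0.259% with the isotype. JUNB counts per JUN count were 0.841, 0.832 and 1.23 at 5 µg/ml, against 0.984, 1.01 and 0.914 with the isotype, and the groups overlapped in this ratio.

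A joint fit of the 15 labelled libraries tested whether the response to VT107 at 2.15 µM differed from that to intetumumab at 5 µg/ml, each against its own control. No library was shared between the 2 responses. JUNB was the 1 member of 8 that was called, against 0.0782% of 10227 genes. Its difference was -1.60 on the log2 scale (SE 0.24, 95% interval -2.10 to -1.10, adjusted p = 0.0189), that is, further below its control with VT107. JUN had a difference of -0.80 (SE 0.22, adjusted p = 0.254), and FOSL2 one of 0.46 (95% interval -0.02 to 0.94, adjusted p = 0.570). The differences of the other members were 0.28 for FOSL1, 0.40 for JUND, -0.78 for ATF3, -0.48 for FOSB and -0.15 for FOS, with adjusted p-values of 0.834 and above. The JUNB call was lost in 6 of 18 alternatives: a fit of the 4 groups alone (adjusted p = 0.0751), and the fits without DMSO replicate 1 (adjusted p = 0.0902), without VT107 2.15 µM replicate 2 (0.225), and without isotype replicate 1 (0.0596), 2 (0.0818) or 3 (0.0576).

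**Figure D4:**
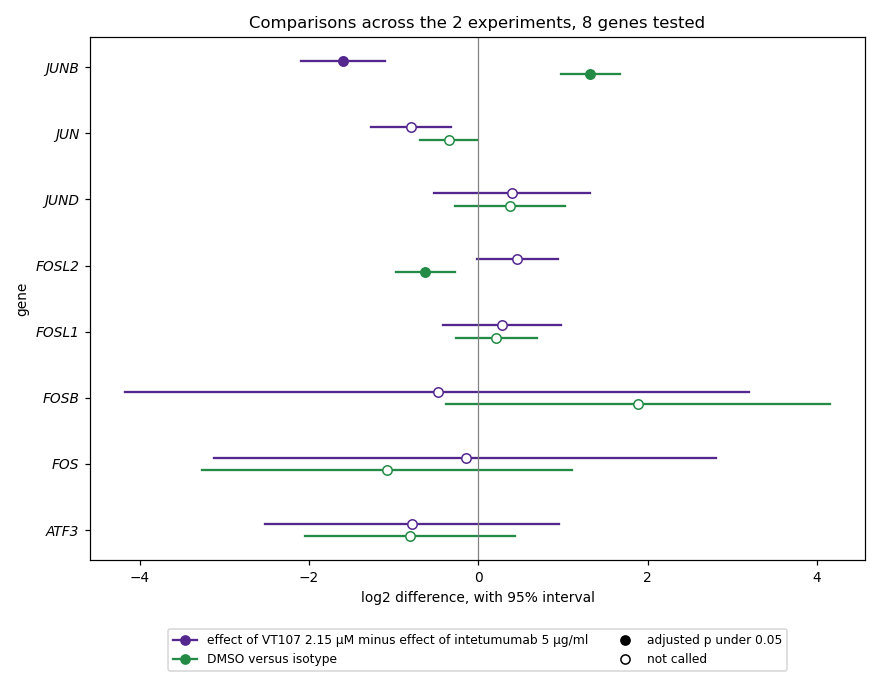
Log2 differences across the 2 experiments (horizontal axis, with 95% intervals) for the 8 AP-1 genes, as the effect of VT107 2.15 µM minus that of intetumumab 5 µg/ml and as DMSO versus isotype, from 1 fit of 15 libraries. Filled points have an adjusted p under 0.05. JUNB is filled in both, at -1.60 and 1.32, and FOSL2 is filled for DMSO versus isotype at -0.63.

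The level in DMSO was set against that with the isotype. Each of these groups lies in 1 experiment of its own, so control agent and experiment cannot be told apart. JUNB had 2185 and 1535 CPM in DMSO, against 762, 739 and 735 CPM with the isotype. It was 2.50-fold higher in DMSO (adjusted p = 1.40e-04, log2 fold change 1.32, SE 0.16), and it was called under all 13 alternatives run. FOSL2 had 547 and 460 CPM in DMSO, against 739, 797 and 801 CPM with the isotype, 1.55-fold lower (adjusted p = 0.0188, log2 fold change -0.63, SE 0.16). The FOSL2 call was lost without DMSO replicate 2 (adjusted p = 0.126) and without isotype replicate 2 (0.0533) or 3 (0.0575).

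JUN had 645 and 560 CPM in DMSO, against 774, 729 and 805 CPM with the isotype, with no overlap (adjusted p = 0.154, log2 fold change -0.35, SE 0.16). JUN and JUNB thus stood on opposite sides of the isotype level, and of the 2 JUNB alone was called. FOSL1 had 189 and 202 CPM in DMSO, against 173, 163 and 170 CPM (log2 fold change 0.21, adjusted p = 0.583). FOSB had 54 counts in each DMSO library, against 0, 24 and 12 with the isotype (adjusted p = 0.265, log2 fold change 1.89, SE 1.07). The isotype libraries thus held fewer FOSB counts, 1 of them none, and the interval of the difference included 0. The log2 fold change of FOSB was 3.02 without isotype replicate 2 and 1.33 without replicate 1. JUND had 109 and 67.9 CPM, against 65.6, 68.9 and 70.6 CPM (log2 fold change 0.37, adjusted p = 0.459). ATF3 had 36.4 and 17.5 CPM, against 52.2, 60.8 and 28.9 CPM (log2 fold change -0.81, adjusted p = 0.392). FOS had 3 and 5 counts in DMSO, against 11, 4 and 6 with the isotype (log2 fold change -1.08, adjusted p = 0.526), too few to order the groups firmly. Calls were made for 2 of the 8 members, against 13.5% of the 10227 genes. In CPM, groups with no overlap were found for 3 members lower in DMSO (FOSL2, JUN and the barely counted FOS) and 3 higher (JUNB, FOSL1 and FOSB), against 22.9% and 22.0% of genes.

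Over all 6 groups, the JUNB mean was 1860 ± 460 CPM in DMSO (SD, n = 2), above every other group without overlap. Next came the isotype group (745 ± 14.3 CPM, n = 3) and VT107 at 0.1 µM (725 ± 64.1, n = 2), which overlapped. Intetumumab at 1.5 µg/ml (516 ± 54.3, n = 3) also overlapped its higher dose (458 ± 40.4, n = 3). VT107 at 2.15 µM was the lowest, at 377 ± 50.4 CPM (n = 2), also without overlap. JUN kept another order, with the isotype group highest (769 ± 37.9 CPM, n = 3), then DMSO (602 ± 60.0, n = 2) overlapping intetumumab at 1.5 µg/ml (566 ± 12.6, n = 3), then intetumumab at 5 µg/ml (484 ± 66.0, n = 3). VT107 at 0.1 µM (259 ± 14.3, n = 2) and at 2.15 µM (217 ± 32.2, n = 2) were lowest and did not overlap each other. FOSL2 was highest with the isotype (779 ± 34.6 CPM, n = 3), apart from the next group. Its other 5 group means, between 450 and 602 CPM, each overlapped the neighbour in order. FOSL1 formed an upper set of DMSO (195 ± 9.21 CPM), VT107 at 0.1 µM (184 ± 30.5) and the isotype (169 ± 4.77). A lower set, with a gap below the isotype, held VT107 at 2.15 µM (131 ± 8.76), then both antibody doses, 1.5 µg/ml (129 ± 22.5) and 5 µg/ml (93.6 ± 21.2). JUND had its means between 88.6 and 95.3 CPM in the VT107 experiment, and between 50.7 and 68.4 CPM in the intetumumab experiment. FOSB was highest in DMSO (56.0 ± 5.11 CPM), apart from VT107 at 0.1 µM (40.8 ± 6.96), and the others overlapped their neighbours. For FOS and ATF3 every pair of neighbouring groups overlapped.

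Likeness was measured to JUNB, the member with the highest mean CPM over the 15 labelled libraries, although FOSL2 had the higher CPM in each group of the intetumumab experiment. It was taken within each experiment as Pearson's r of log2(CPM + 1), over 6 libraries for VT107 and 9 for intetumumab. The values are descriptions, since the libraries of an experiment share their treatments. JUN was the member most like it, with r of 0.96 and 0.84. FOSL1 followed with 0.82 and 0.68. FOSL2 gave -0.13 and 0.61, JUND -0.14 and 0.50, FOSB 0.91 and 0.17, and ATF3 0.50 and -0.07. A mean of at least 50 CPM in both experiments was reached by 3767 genes. Of these, the 2 non-members with the highest smaller r were ENSG00000196924 (0.91 and 0.94) and ENSG00000122641 (0.91 and 0.92). Both stood lower with VT107 at 2.15 µM (log2 fold change -1.21 for ENSG00000196924 and -0.64 for ENSG00000122641) and neither was called with either agent with edgeR. Both genes were picked for following JUNB over these same libraries, so lower values with VT107 come with the choice and are no separate result. ENSG00000122641 was also called higher in DMSO than with the isotype (log2 fold change 1.39, adjusted p = 4.68e-06), while ENSG00000196924 was not (0.32, adjusted p = 0.405). The files do not pair these IDs with names.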

How the data were processed

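The deposited table holds raw counts per gene for 17 libraries. The authors made these counts from reads of new transcripts with SLAM DUNK, as the series' design text has it. Reads were placed on GRCh38, per the submitters' processing notes; the annotation, the conversions needed per read and any use of strand are not stated there. Libraries were QuantSeq 3′ end libraries, per the labels' protocols. Each column was matched to a sample by its description. Members and lists were chosen with earlier results of these data known. Other AP-1 regulators and targets, TEAD targets and cell markers were listed by symbol but not analysed here, because no IDs could be paired with symbols.

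Genes were filtered with filterByExpr (minimum count 10), scaled by TMM and tested with edgeR 4.0.16 (quasi-likelihood F-test; R 4.3.3) on all labelled libraries of an experiment (10083 and 9024 genes) or all 15 (10227), two-sided, with Benjamini-Hochberg adjustment over all genes. The SE is the log2 fold change divided by the square root of F. Joint and own-experiment scaling differed by at most 1.26%. Alternatives used DESeq2 1.42.0, other scalings and filters, a replicate block, other sets of libraries and counts divided by their common divisor. The fit was also run on simulated data. Over all genes it missed most changes of the smaller size simulated. Among the best counted genes it found most of these for intetumumab and missed most for VT107. False calls exceeded the nominal share in every comparison simulated except intetumumab 5 µg/ml versus isotype, by most for VT107 2.15 µM. The rule for named genes took all 8 members in every comparison in which they passed the filter, and the 2 other genes most like the member of highest mean CPM. Deviations of same-numbered libraries over all filtered genes correlated between -0.03 and 0.02. In groups of 2 libraries the deviations of replicates 1 and 2 mirror each other. This check showed no pairing by number and cannot exclude one. Promoter sequences and positions are from RefSeq, matched by symbol (7 and 8 of 8 members).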

Additional observations from a re-analysis of the deposited data

Results flagged for a closer look

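JUNB was flagged because its response differed between the 2 agents by a direct test of the difference. The effect of VT107 at 2.15 µM minus that of intetumumab at 5 µg/ml was -1.60 on the log2 scale. Its level was 1860 ± 460 CPM in DMSO (SD, n = 2) against 745 ± 14.3 CPM with the isotype (SD, n = 3). The treated levels were closer to each other, at 377 ± 50.4 CPM with VT107 2.15 µM (n = 2) and 458 ± 40.4 CPM with intetumumab 5 µg/ml (n = 3). The effect difference is built from the levels of both treated and both control groups, so the higher DMSO level enters it directly. In the same fit JUNB was 1.32 higher in DMSO than with the isotype on the log2 scale. A direct contrast of the 2 treated groups was not tested.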

How the results depend on the processing

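The number of members called depended on the method. With DESeq2 it was 2 for VT107 2.15 µM, 2 for 0.1 µM, 1 between these doses, 3 for intetumumab 5 µg/ml, 1 for 1.5 µg/ml and 2 for the difference between agents. In the same order, DESeq2 called 2.43%, 1.81%, 0.0694%, 1.11%, 0.388% and 1.02% of all genes. Without a filter on low counts it was 2 at each VT107 dose, as it was in 1 fit of all 15 libraries, and with a minimum count of 30 it was 2 at 2.15 µM. With the groups compared alone it was 0 at 2.15 µM and 0 for the difference between agents, where 1 and 2 of all genes were called. Leaving out 1 library gave 0 to 1 member at 2.15 µM, 0 to 1 for the difference between agents and 1 to 2 for DMSO versus isotype, where the range for JUNB was 1.06 to 1.55 and that for FOSL2 -0.74 to -0.51. The replicate block left the count at 1 for VT107 2.15 µM, 0 for 0.1 µM, 1 for the difference between agents and 2 for DMSO versus isotype, and changed no other count of members. Over all genes, calls at VT107 2.15 µM and 0.1 µM numbered 199 and 171 without the filter, 155 and 72 in the fit of 15 libraries, and 33 and 9 with a minimum count of 30. Calls over all genes in the main edgeR fit, with DESeq2 and with the replicate block numbered 11, 245 and 5 at VT107 2.15 µM. They numbered 0, 183 and 0 at 0.1 µM, 8, 100 and 1 at intetumumab 5 µg/ml, and 0, 35 and 0 at 1.5 µg/ml. For the difference between agents they numbered 8, 104 and 6. FOSL1 at 0.1 µM was at 0.03 under total count scaling. Signs of uncalled members changed when 1 library was left out: at 2.15 µM FOSL2 (-0.03 to 0.19), JUND (-0.19 to 0.47) and ATF3 (-1.0 to 0.02); at 0.1 µM FOSL1 (-0.26 to 0.07) and JUND (-0.30 to 0.43); between these doses JUND (-0.24 to 0.41); at intetumumab 5 µg/ml ATF3 (-0.06 to 0.43); at 1.5 µg/ml FOSB (-0.85 to 1.56); between these doses FOSL2 (-0.14 to 0.13) and JUND (-0.02 to 0.36); for the difference between agents FOS (-1.17 to 0.40) and FOSB (-1.61 to 4.89). The cause of these changes was not tested. Of 820 values of single members under alternatives, 770 kept direction and side of the threshold, 12 lost a call, 16 gained one and 22 changed sign. Values to which DESeq2 gave no adjusted p, such as FOSB and ATF3 at VT107 2.15 µM, were counted there as not called. Members that a filter removed under an alternative gave no value and are not among the 820.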
